A study of Homo sapiens with 4 samples.

Results

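The genes described here build the kinetochore, the protein structure that ties each chromosome to the spindle, and run the spindle checkpoint that watches over it. They are 54 of the 17687 genes measured, listed by name across centromere proteins, kinetochore complexes, checkpoint proteins, mitotic kinases and mitotic kinesins, and each was matched by its symbol to 1 probe set. RNA from PC3 and C42B, human prostate cancer cell lines, was hybridised to 4 Clariom S arrays, 1 for each line and construct. The constructs were a pMIR vector in which the CMV promoter drives the precursor of hsa-miR-410 with a GFP reporter (miR-410) and its scrambled counterpart (miR-CON), stably transfected and selected with puromycin. All cells grew in RPMI medium with puromycin to the logarithmic phase, so the drug was shared by every group. With 1 array per group, a difference within a line has no error and no test.

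The arrays are called by their titles because the labels are not settled, so PC3 miR-410, PC3 miR-CON, C42B miR-410 and C42B miR-CON stand for the arrays with these titles, whatever RNA they held. In the pair titled PC3 the genotype and description fields name the opposite construct to the title, and in the pair titled C42B all fields name the same construct. C42B cells come from the LNCaP line, yet all 10 LNCaP-lineage markers measured averaged higher on the arrays titled PC3. Among 11 markers of PC3 cells, 10 averaged lower there. Both marker lists were chosen with earlier results of these data known. KLK3, which encodes prostate-specific antigen, had log2 values of 11.17 and 11.04 on PC3 miR-410 and PC3 miR-CON, against 6.74 and 7.18 on C42B miR-410 and C42B miR-CON. The line named in a title therefore went against its defining markers in both pairs. Array medians over all genes lay between 6.54 and 6.58, so a value near 6.5 is that of a middling probe set.

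The construct encodes miR-410-3p, whose seed, bases 2 to 8, is the stretch that pairs with target messages. The mature sequence of RefSeq (GRCh38.p14, chr14:101065961-101065981, plus strand) is printed with the seed in capitals, because it is the agent that the constructs were made to compare.
hsa-miR-410-3p: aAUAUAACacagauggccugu

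In each cell cycle, nucleosomes holding the histone variant CENP-A mark the centromere, and a constitutive network of CENP proteins is built on them. In mitosis the outer kinetochore is added, whose Ndc80 complex grips microtubules, and kinetochores without microtubules produce a checkpoint signal that holds back the anaphase-promoting complex. Transcripts of many of these genes peak in G2 and M phase. In RNA from a whole culture, a larger share of cells in those phases and more transcripts per cell cannot be told apart.

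C42B miR-410 carried higher values than C42B miR-CON for nearly the whole group. The difference was above 0 for 51 of 54 genes (94.4%), against 50.9% of all genes, and its median was 0.46 (log2) against 0.01 over all genes. At least 1.5-fold higher values were found for 20 of the 54 (37.0%), against 6.80% of all genes, and at least 1.5-fold lower values for 0 of 54, against 7.25%. By title this direction is opposite to the one in which the study describes its arrays. PRKD1, a kinase gene that is no member of the group, is given by the study as lower with miR-410 in PC3 cells, whose markers lay on the arrays titled C42B. The study reports it lower by real-time PCR in C42B cells as well, and its protein lower by Western blot. PRKD1 had a value of 6.80 on C42B miR-410 and 3.86 on C42B miR-CON, and 10.23 and 10.15 on PC3 miR-410 and PC3 miR-CON. It was thus 7.69-fold higher on C42B miR-410 than on C42B miR-CON. In the study's list for PC3 cells, PRKD1 has a fold change of the same size after rounding, with a negative sign. For this gene the pair titled C42B therefore matches the study's comparison of PC3 cells with the constructs exchanged. For its arrays of PC3 cells the study also reports enrichment of genes of chromosome organization and segregation, with no sign given in its text. That gene set enrichment analysis was not repeated here. The group had no common direction on the arrays titled PC3, where 24 of 54 were above 0 (44.4%, against 48.9% of all genes) and the median was -0.021.

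**Figure D1:**
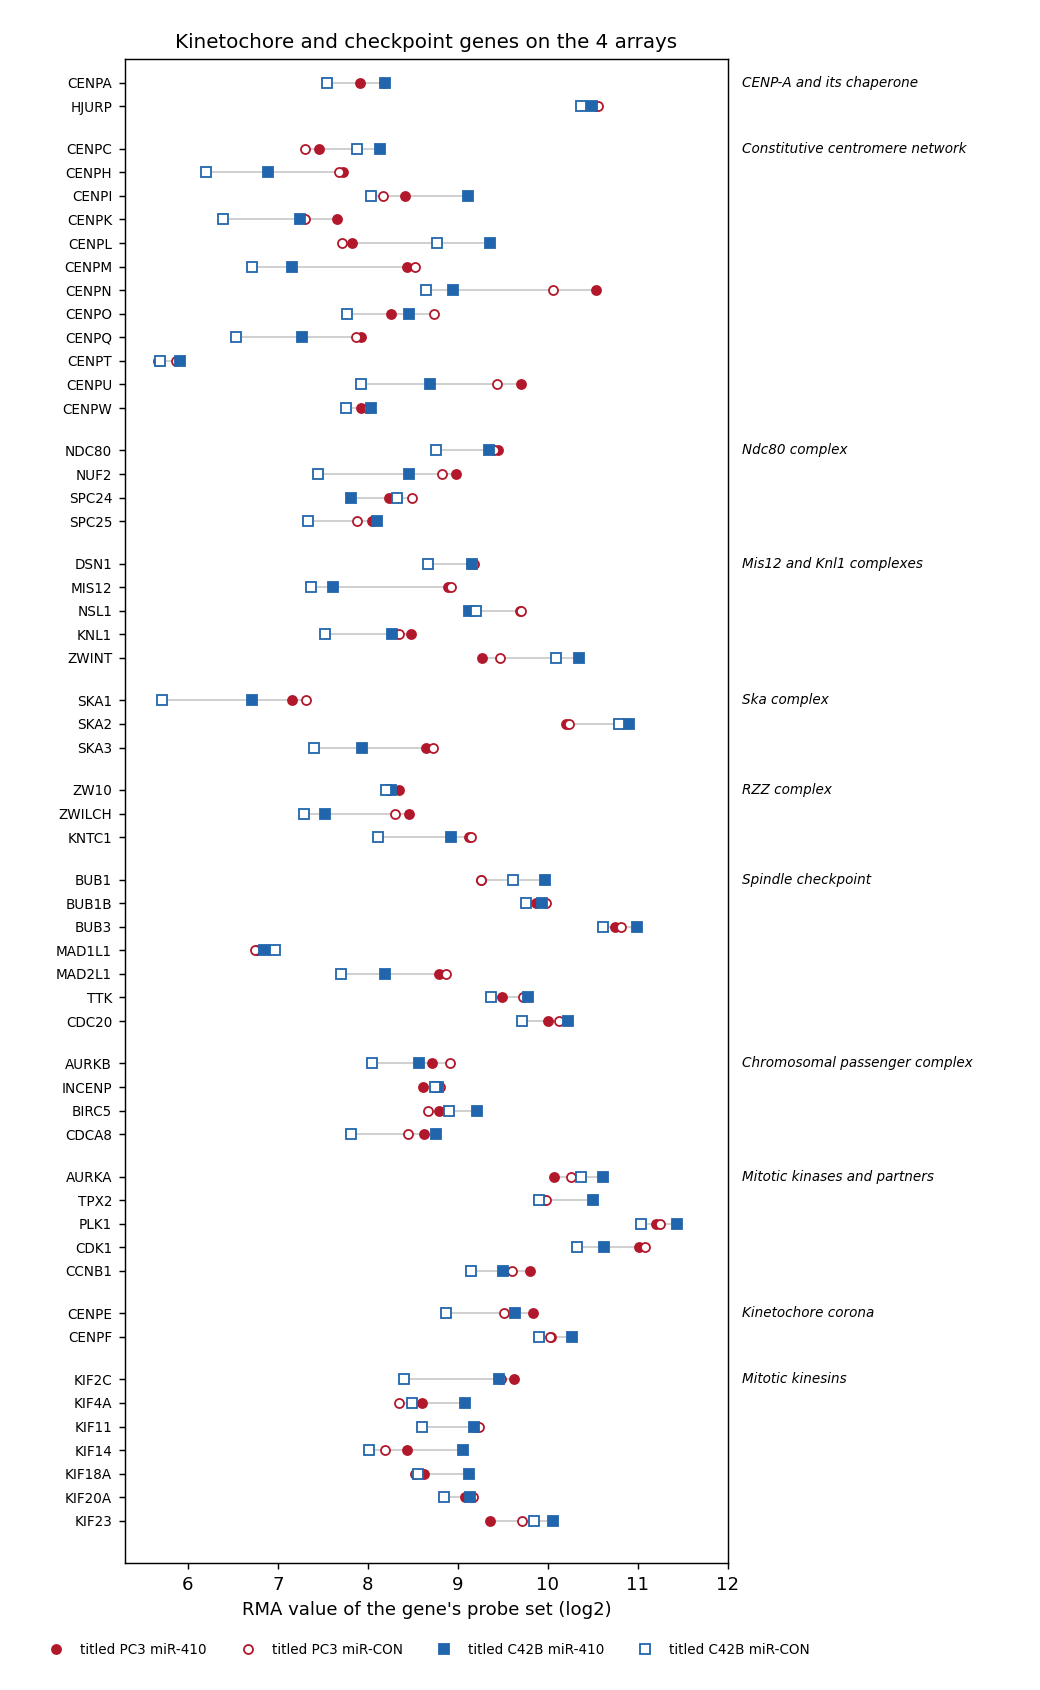
Log2 RMA values (horizontal axis) of 54 genes, grouped by complex, on PC3 miR-410 (filled circles), PC3 miR-CON (open circles), C42B miR-410 (filled squares) and C42B miR-CON (open squares). Open squares lie farthest left in 39 of 54 rows. Levels of different rows come from different probe sets and are not comparable.

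CENPA encodes the centromeric histone and HJURP the chaperone that places it. CENPA had values of 8.19 on C42B miR-410 and 7.55 on C42B miR-CON, which is 1.56-fold, and 7.92 and 8.18 on PC3 miR-410 and PC3 miR-CON. HJURP was nearly level, with 10.49 on C42B miR-410 and 10.37 on C42B miR-CON. The histone gene thus differed more within the pair titled C42B than the gene of its chaperone.

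All 12 genes of the constitutive centromere network were higher on C42B miR-410 than on C42B miR-CON, with a median difference of 0.63 and a range of 0.22 to 1.07. CENPI, part of the H-I-K-M subcomplex, had 9.11 on C42B miR-410 and 8.04 on C42B miR-CON. This 2.10-fold difference was the highest of the 54 genes and stood at rank 185 of 17687. On PC3 miR-410 and PC3 miR-CON its values were 8.41 and 8.17, so C42B miR-410 was above the other three. CENPK and CENPH of the same subcomplex were 1.82-fold and 1.62-fold higher, and lay lowest of the 4 arrays on C42B miR-CON. CENPK had 7.25 on C42B miR-410 and 6.39 on C42B miR-CON, and 7.66 and 7.30 on PC3 miR-410 and PC3 miR-CON. CENPH had 6.89 on C42B miR-410 and 6.20 on C42B miR-CON, and 7.72 and 7.68 on PC3 miR-410 and PC3 miR-CON. Their partner CENPM differed less, by 0.43. Members of one subcomplex were therefore higher to unlike degrees.

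CENPO, CENPQ and CENPU, which encode subunits of the O-P-Q-U-R subcomplex, were 1.61-fold, 1.66-fold and 1.70-fold higher. CENPU had 8.69 on C42B miR-410 and 7.93 on C42B miR-CON, and 9.70 and 9.43 on PC3 miR-410 and PC3 miR-CON. CENPQ had 7.26 on C42B miR-410 and 6.54 on C42B miR-CON, and 7.92 and 7.87 on PC3 miR-410 and PC3 miR-CON. For both genes all values of the arrays titled PC3 were above those titled C42B. CENPO had 8.45 on C42B miR-410 and 7.77 on C42B miR-CON, and 8.25 and 8.73 on PC3 miR-410 and PC3 miR-CON, so it was higher with miR-410 in one pair and lower in the other by title. The L-N pair differed to unlike degrees, by 0.59 for CENPL and by 0.30 for CENPN. The smallest differences in the network were those of CENPC, the scaffold that binds CENP-A nucleosomes (0.26), and of CENPW (0.27) and CENPT (0.22), which encode histone-fold proteins that link the network to the Ndc80 complex. CENPT lay below the array median on all 4 arrays, with values between 5.67 and 5.91, and whether its probe set was above background was not tested.

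In the outer kinetochore, 3 of the 4 genes of the Ndc80 complex were at least 1.5-fold higher, against 6.80% of all genes. The other one ran the opposite way. NUF2 had 8.46 on C42B miR-410 and 7.45 on C42B miR-CON, a 2.02-fold difference, and 8.98 and 8.83 on PC3 miR-410 and PC3 miR-CON. SPC25 had 8.10 on C42B miR-410 and 7.34 on C42B miR-CON, and 8.04 and 7.87 on PC3 miR-410 and PC3 miR-CON. NDC80, the subunit that binds microtubules together with NUF2, had 9.34 on C42B miR-410 and 8.76 on C42B miR-CON, and 9.44 and 9.40 on PC3 miR-410 and PC3 miR-CON. In all 3 genes C42B miR-CON was the lowest of the 4 arrays. SPC24, the dimer partner of SPC25, had 7.81 on C42B miR-410 and 8.32 on C42B miR-CON, and was given in full because its sign stood out once values were seen. Its difference of -0.52 was the lowest of the 54 genes, and on PC3 miR-410 and PC3 miR-CON it was also lower by title, with 8.23 and 8.49. The subunits of this dimer thus differed in opposite directions within the pair titled C42B, with no replicate to give the error.

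Of the Mis12 and Knl1 complexes, which join the Ndc80 complex to the inner kinetochore and recruit checkpoint proteins, KNL1 differed most. KNL1 had 8.27 on C42B miR-410 and 7.53 on C42B miR-CON, which is 1.68-fold, and 8.48 and 8.35 on PC3 miR-410 and PC3 miR-CON. DSN1 had a difference of 0.49, and MIS12 and ZWINT had 0.25 each. NSL1 had -0.070 and was 1 of only 3 genes below 0, with SPC24 and MAD1L1. The 3 genes of the Ska complex, which helps kinetochores to hold on to shortening microtubules, covered a wide range. SKA1 had 6.71 on C42B miR-410 and 5.71 on C42B miR-CON, which is 1.99-fold, and 7.16 and 7.31 on PC3 miR-410 and PC3 miR-CON. SKA3 differed by 0.53 and SKA2 by 0.11 within the pair titled C42B. The value of SKA1 on C42B miR-CON lay below that array's median, as did those of CENPH, CENPK and CENPQ.

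In the RZZ complex, which brings checkpoint proteins and dynein to kinetochores, KNTC1 had 8.93 on C42B miR-410 and 8.11 on C42B miR-CON, and 9.13 and 9.14 on PC3 miR-410 and PC3 miR-CON. The difference within the pair titled C42B was 1.76-fold, against 1.17-fold for ZWILCH and 1.03-fold for ZW10. Among the genes of the kinetochore corona, the kinesin gene CENPE had 9.63 on C42B miR-410 and 8.87 on C42B miR-CON (1.70-fold), and 9.84 and 9.51 on PC3 miR-410 and PC3 miR-CON. CENPF was 1.29-fold higher on C42B miR-410.

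Checkpoint genes proper had a median difference of 0.37 in the pair titled C42B. At least 1.5-fold higher were 0 of 7, against 6.80% of all genes, and 7 genes are too few to tell these shares apart. CDC20, the activator of the anaphase-promoting complex that the checkpoint holds in check, had the largest difference of the 7, with 10.22 on C42B miR-410 and 9.71 on C42B miR-CON, and 10.0002 and 10.12 on PC3 miR-410 and PC3 miR-CON. MAD2L1, which encodes the protein that binds CDC20 in the checkpoint complex, differed by 0.49, the kinase gene TTK by 0.41, BUB1 by 0.35 and BUB1B by 0.18. BUB3, a subunit of the checkpoint complex, had 10.99 on C42B miR-410 and 10.62 on C42B miR-CON, and 10.74 and 10.81 on PC3 miR-410 and PC3 miR-CON. MAD1L1, the partner that recruits MAD2L1 to kinetochores, had 6.84 on C42B miR-410 and 6.96 on C42B miR-CON, a difference of -0.12, and 6.77 and 6.74 on PC3 miR-410 and PC3 miR-CON. It was the only one of the 54 genes that was highest on C42B miR-CON. The difference between this complex and the others was not tested.

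The chromosomal passenger complex corrects faulty attachments, and its genes ranged from 0.03 for the scaffold INCENP to 0.94 for CDCA8, which encodes borealin. CDCA8 had 8.76 on C42B miR-410 and 7.81 on C42B miR-CON, and 8.62 and 8.44 on PC3 miR-410 and PC3 miR-CON. The kinase gene AURKB differed by 0.52 and BIRC5, which encodes survivin, by 0.31. Mitotic kinases and their partners were higher to a more even degree, from 0.24 for AURKA to 0.61 for TPX2, the activator of the AURKA kinase. TPX2 had 10.51 on C42B miR-410 and 9.90 on C42B miR-CON, and 9.95 and 9.98 on PC3 miR-410 and PC3 miR-CON. PLK1, a kinase of mitotic entry and of kinetochores, had 11.43 on C42B miR-410 and 11.03 on C42B miR-CON, and 11.20 and 11.25 on PC3 miR-410 and PC3 miR-CON. For both genes C42B miR-410 was the highest and C42B miR-CON the lowest of the 4 arrays. CDK1, the kinase that starts mitosis, had 10.62 on C42B miR-410 and 10.32 on C42B miR-CON, and 11.01 and 11.08 on PC3 miR-410 and PC3 miR-CON. Its cyclin gene CCNB1 differed by 0.35.

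Each of the 7 mitotic kinesin genes was higher on C42B miR-410. KIF2C, a microtubule-depolymerising kinesin that acts in error correction, had 9.46 on C42B miR-410 and 8.40 on C42B miR-CON, a 2.08-fold difference, and 9.63 and 9.48 on PC3 miR-410 and PC3 miR-CON. KIF14, a kinesin of cytokinesis, was 2.07-fold higher, with 9.06 on C42B miR-410 and 8.01 on C42B miR-CON, and 8.44 and 8.19 on PC3 miR-410 and PC3 miR-CON. KIF2C was thus low on C42B miR-CON alone, while KIF14 was high on C42B miR-410. KIF4A, a chromokinesin, had 9.08 on C42B miR-410 and 8.49 on C42B miR-CON, and 8.61 and 8.34 on PC3 miR-410 and PC3 miR-CON. KIF11, which pushes spindle poles apart, lay just under 1.5-fold with a difference of 0.58, as did KIF18A, which dampens chromosome movements, with 0.57. KIF20A (0.29) and KIF23 (0.21), both of which act at the central spindle, differed least. CENPI, KIF2C, KIF14 and NUF2 were the 4 genes at or above 2-fold, a size reached by 1.35% of all genes, and 0 were that much lower, against 2.26% of all genes.

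**Figure D2:**
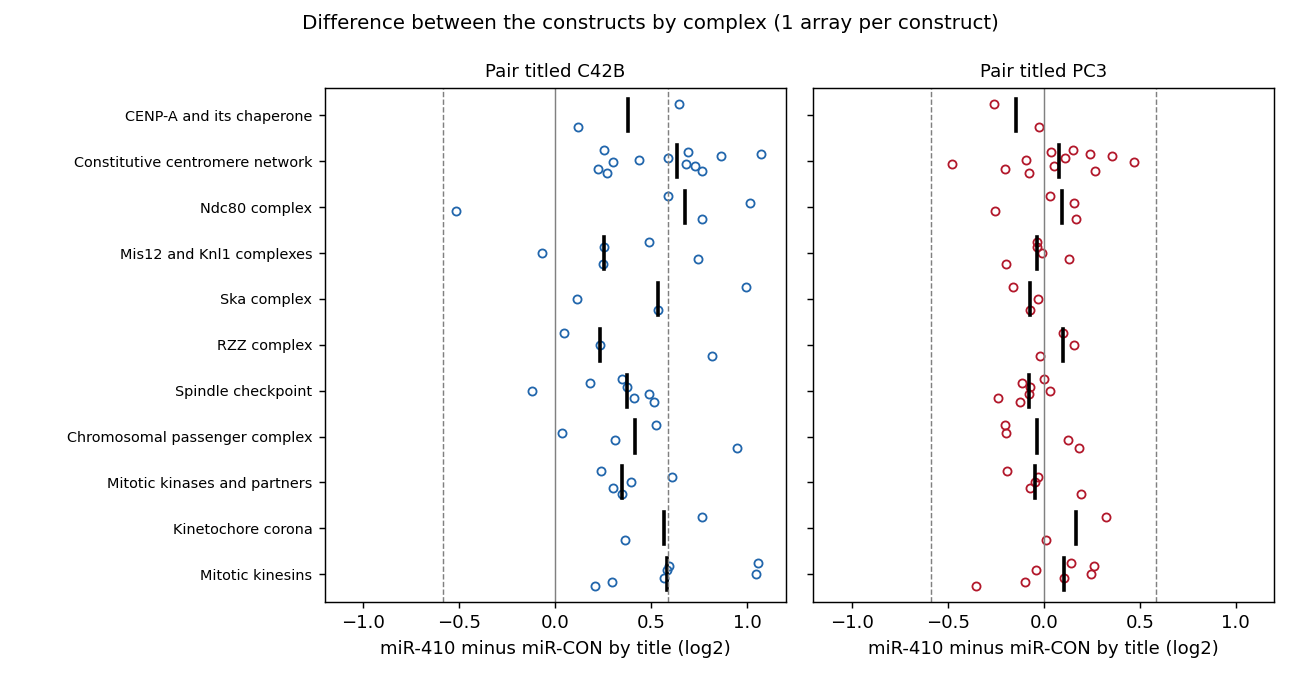
Log2 difference between constructs by title, miR-410 minus miR-CON, for each gene (open circles) by complex, in the pair titled C42B (left) and the pair titled PC3 (right), with complex medians as black bars and dashed lines at 1.5-fold. The left panel has 20 genes beyond the right dashed line and the right panel has 0.

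On the arrays titled PC3 the same genes stayed close together. None of the 54 was at least 1.5-fold higher or lower by title, against 2.92% and 3.62% of all genes (0.441% and 0.656% at 2-fold), and the range ran from -0.48 to 0.47. The 2 ends of that range were both genes of the centromere network. CENPN had 10.53 on PC3 miR-410 and 10.06 on PC3 miR-CON, and CENPO lay at the low end. KIF23 (-0.35), CENPK (0.35) and CENPE (0.33) followed. For 34 of the 54 genes (63.0%) the difference was smaller than 0.164, the median absolute difference of all genes in that pair. In the pair titled C42B that median was 0.245, and 11 of the 54 lay under it (20.4%). By the genotype and description fields every sign in the pair titled PC3 turns, which puts the median at 0.021. Across the 54 genes the differences of the pairs had a Pearson's r of 0.37, against 0.06 across all 17687 genes. Genes are not independent replicates, and the arrays were normalized together, so these coefficients are descriptions, and their sign turns by the genotype and description fields.

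With the 4 arrays side by side, C42B miR-CON was the low one. It held the lowest of the 4 values for 39 of 54 genes (72.2%), against 28.5% of all genes, and the highest for 1 gene (1.85%, against 25.7%). The low values were not particular to these genes. In lists described below, it was lowest for 17 of 19 cohesin and condensin, 14 of 18 spindle and cytokinesis and 22 of 29 S phase genes. For further centromere and kinetochore genes it was 7 of 12, for the anaphase-promoting complex and separase 12 of 20, for G2/M regulators 8 of 14. C42B miR-410 held the highest value for 23 genes (42.6%, against 24.1%) and the lowest for 2 (3.70%, against 26.5%). PC3 miR-410 and PC3 miR-CON held the lowest value for 7 and 6 genes (24.3% and 20.7% of all genes) and the highest for 13 and 17 (25.9% and 24.3%). The medians of the 54 genes were 8.84, 8.89, 9.07 and 8.45 on PC3 miR-410, PC3 miR-CON, C42B miR-410 and C42B miR-CON, with C42B miR-CON below the others. For 12 genes (22.2%, against 4.45% of all genes) C42B miR-CON was the lowest and C42B miR-410 the highest of the 4.

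The comparison between lines used all 4 arrays, with each line's 2 arrays set against each other's in limma and the construct by title as a further term. Across all genes 24.7% passed an adjusted p of 0.05, and 11 of the 54 genes did (20.4%), a share near that of all genes. Higher on the arrays titled PC3 were 9 of the 54 (16.7%, against 13.3% of all genes), and lower there were 2 (3.70%, against 11.4%). The median difference, arrays titled PC3 minus arrays titled C42B, was 0.21 over the 54 genes and 0.03 over all genes, and 35 of 54 were above 0 (64.8%, against 52.6%). Of the other lists described below, S phase genes had 0.67 (26 of 29 above 0), cohesin and condensin 0.43 (16 of 19) and spindle and cytokinesis 0.42 (14 of 18). The median was 0.12 for the anaphase-promoting complex and separase and for G2/M regulators, and -0.0021 for further centromere and kinetochore genes. The 2 arrays of a line carry different constructs, so the error of these values also holds the construct difference that the lines do not share. An exact permutation test of 2 arrays against 2 cannot go below p = 0.33, two-sided.

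Of the 12 genes of the centromere network, 8 had a higher and 4 a lower mean on the arrays titled PC3 than on those titled C42B, and by limma 5 were called higher and 1 lower, against 13.3% and 11.4% of all genes. CENPM had 8.43 and 8.52 on PC3 miR-410 and PC3 miR-CON, against 7.15 and 6.72 on C42B miR-410 and C42B miR-CON, a difference of 1.54 ± 0.21 (SE, limma, adjusted p = 0.0083). CENPN followed with 10.53 and 10.06 on PC3 miR-410 and PC3 miR-CON, against 8.94 and 8.65 on C42B miR-410 and C42B miR-CON, a difference of 1.499 ± 0.18 (SE, limma, adjusted p = 0.0058). The same direction was seen for CENPU (1.26 ± 0.21), CENPH (1.16 ± 0.23) and CENPQ (0.99 ± 0.23), all called by limma. CENPL ran the other way, with 7.82 and 7.71 on PC3 miR-410 and PC3 miR-CON, against 9.36 and 8.77 on C42B miR-410 and C42B miR-CON, and its difference was -1.30 ± 0.21 (SE, limma, adjusted p = 0.012). CENPL and CENPN encode partners in one subcomplex, and they differed between the lines in opposite directions. With either array titled PC3 left out, only CENPM and CENPN of these 6 genes were called, and CENPQ was also not called without C42B miR-CON.

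Outside the network, MIS12 had 8.89 and 8.92 on PC3 miR-410 and PC3 miR-CON, against 7.62 and 7.36 on C42B miR-410 and C42B miR-CON, a difference of 1.41 ± 0.19 (SE, limma, adjusted p = 0.0076). SKA3, ZWILCH and MAD2L1 were also called higher, by 1.01 ± 0.22, 0.97 ± 0.18 and 0.89 ± 0.22. ZWINT, which encodes a binding partner of KNL1, was called lower, by a difference of -0.85 ± 0.20 (limma, adjusted p = 0.039). With either array titled PC3 left out, only MIS12 of these 5 genes was called, and MAD2L1 was also not called without C42B miR-CON. SKA1 had a difference of 1.02 with a larger SE of 0.31 and was not called (limma, adjusted p = 0.074), but it was called higher with the construct taken from the genotype and description fields. The 7 checkpoint genes ran from -0.54 for BUB1 to 0.89 for MAD2L1, with a median of 0.03, and MAD2L1 was the 1 called. The 5 mitotic kinases and partners ran from -0.33 for AURKA to 0.57 for CDK1, with a median of -0.01, and 0 were called by limma. Of all genes 24.7% were called, and groups of 7 and 5 genes are too small to be told apart from that share. The values of both lines did not overlap for 31 of the 54 genes, with the arrays titled PC3 above for 22 (40.7%, against 35.2% of all genes) and below for 9 (16.7%, against 29.4%), and they overlapped for 23 (42.6%, against 35.5%).

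The size of the line difference depended on which array titled C42B it was taken against. Set against C42B miR-410 alone, the mean of the arrays titled PC3 had a median difference of -0.0054 over the 54 genes, and 7 were called higher and 6 lower in limma, against 13% and 12.5% of all genes in that fit. Against C42B miR-CON alone the median was 0.42, with 20 called higher and 2 lower, against 15.9% and 12.6% of all genes. CENPI shows the turn, with a difference of -0.82 against C42B miR-410 and 0.26 against C42B miR-CON. The fits with an array left out held line as the only term. Before moderation, their error came only from the pair that kept both arrays. The construct difference of the 54 genes had a median size of 0.12 in the pair titled PC3 and 0.49 in the pair titled C42B. Numbers of calls therefore also differ between fits through model and error. Without PC3 miR-410, and likewise without PC3 miR-CON, limma called 3 genes higher, CENPM, CENPN and MIS12, and 0 lower (3 and 2 at an unadjusted p under 0.05). Of all genes 6.06% and 6.71% were called higher in these fits, and 6.72% and 7.01% lower. These 3 genes were called with each array left out in turn. Of the 11 calls, 9 were kept without C42B miR-CON and 11 without C42B miR-410.

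**Figure D3:**
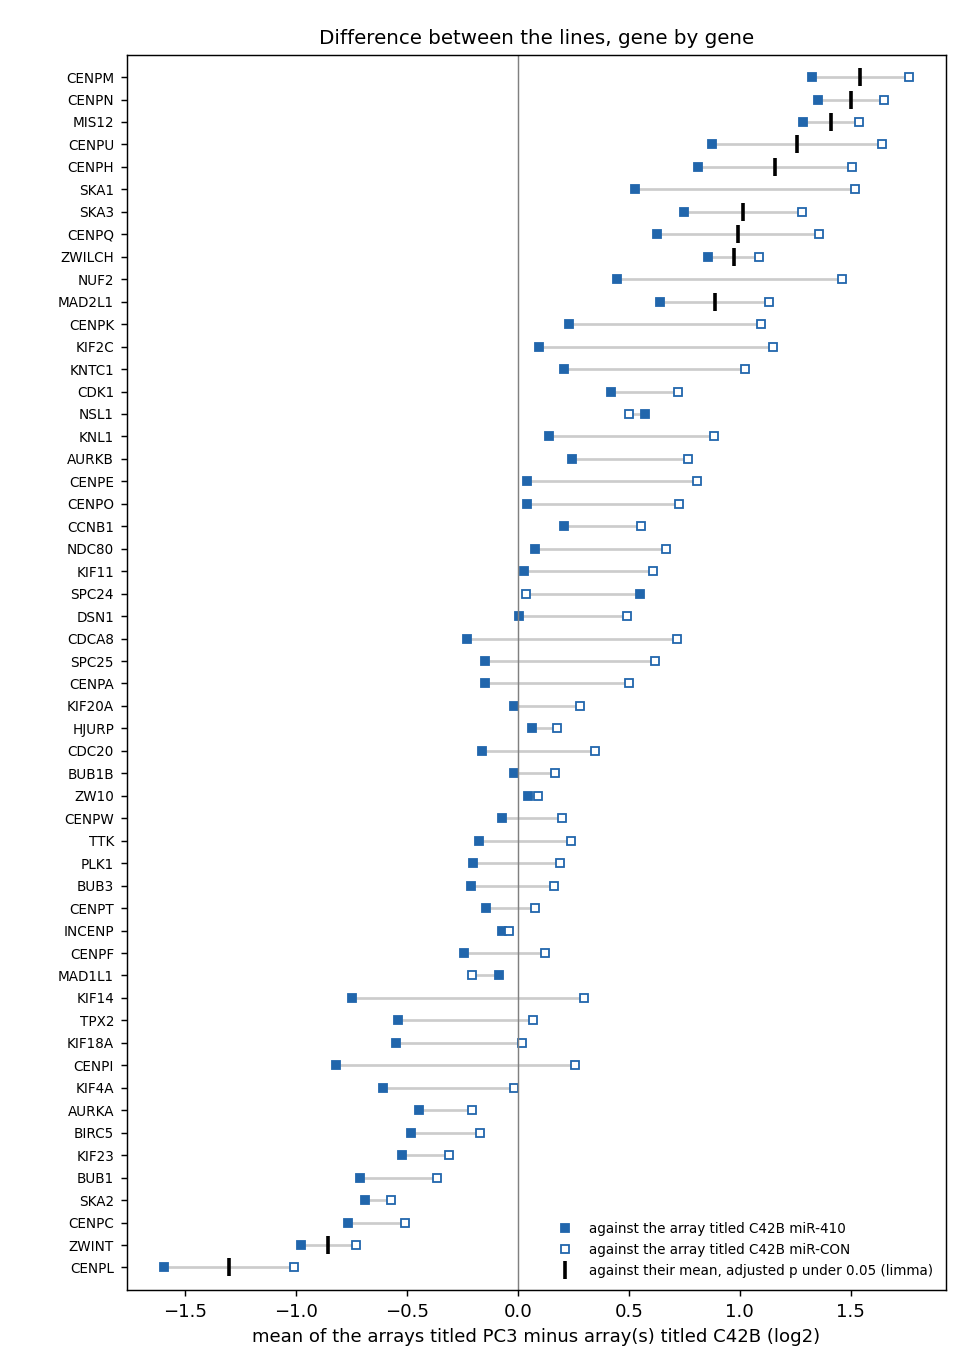
Log2 difference of the mean of both arrays titled PC3 minus C42B miR-410 (filled squares) or minus C42B miR-CON (open squares) for 54 genes, sorted by the difference from their mean, which is marked by a bar where limma gave an adjusted p under 0.05. CENPM, CENPN and MIS12 are at the top with both squares beyond 1, and many genes in the middle have their squares on opposite sides of 0.

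Other cell cycle genes were listed to place the group. In the pair titled C42B the lists of centromere, spindle and cohesin genes had medians between 0.34 and 0.46. Of 12 measured further centromere and kinetochore genes, 12 were above 0 and 5 at least 1.5-fold higher, with a median of 0.34. Of all genes, 50.9% were above 0 and 6.80% at least 1.5-fold higher. SGO2, which protects centromeric cohesion, had 8.31 on C42B miR-410 and 6.95 on C42B miR-CON, and OIP5, which prepares centromeres for new CENP-A, had 7.15 on C42B miR-410 and 6.26 on C42B miR-CON. Of 18 spindle and cytokinesis genes, 17 were above 0, with a median of 0.46, the same as that of the 54. The exception was PRC1, which bundles microtubules of the central spindle, with 10.06 on C42B miR-410 and 10.80 on C42B miR-CON, and it was 1.67-fold lower. CEP55, an abscission gene, had 8.44 on C42B miR-410 and 7.36 on C42B miR-CON, and PLK4, the kinase of centriole duplication, had 7.97 on C42B miR-410 and 7.13 on C42B miR-CON. Cohesin and condensin genes had a median of 0.44, with 18 of 19 above 0, led by the cohesin gene STAG1 (1.56) and WAPL (1.14), the cohesin release factor. The lists of cohesin, centromere and spindle genes were chosen with earlier results of these data known.

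The remaining lists had lower medians in the pair titled C42B. The 20 genes of the anaphase-promoting complex and separase had a median of 0.21. At least 1.5-fold higher was 1 of 20, against 6.80% of all genes. It was FBXO5 (0.64), which encodes an inhibitor of that complex. For 29 S phase genes the median was 0.22, with 25 above 0 and 4 below it. The cyclin gene CCNE2 (1.05) and ORC1 (0.96), of the origin recognition complex, were highest, and CCNE1 (-0.69), which encodes the other E-type cyclin, was the 1 gene at least 1.5-fold lower. The 14 regulators of G2/M transcription had a median of 0.18, with 9 above 0 and 5 below it. Subunits of the MuvB complex lay at both ends, with LIN9 (0.74) and LIN54 (0.62) highest of the 14, LIN37 at -0.13 and LIN52 (-0.44) lowest. On the arrays titled PC3 the medians of these 6 lists lay between -0.09 and 0.04. The difference between lists was not tested. Proliferation markers did not all go one way. MKI67, which encodes Ki-67, had 10.35 on C42B miR-410 and 9.66 on C42B miR-CON, and TOP2A, the topoisomerase gene of mitotic chromosomes, had 10.66 on C42B miR-410 and 10.14 on C42B miR-CON. CCNA2 had a difference of 0.28, whereas CCNB2 had -0.04 and PCNA -0.09. Their part in the values of the 54 genes was not tested.

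**Figure D4:**
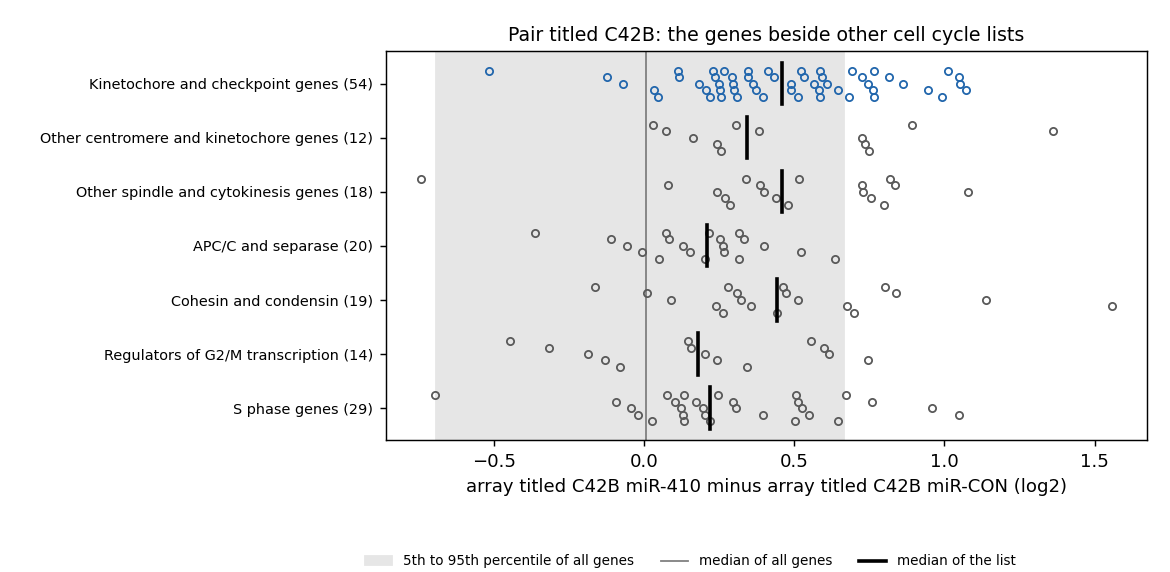
Log2 difference within the pair titled C42B, miR-410 minus miR-CON, for 54 kinetochore and checkpoint genes and 6 further cell cycle lists (circles are genes, black bars list medians), over the 5th to 95th percentile of all genes in grey. Medians run from 0.18 for regulators of G2/M transcription to 0.46 for the kinetochore genes and for spindle and cytokinesis genes, with the median of all genes at 0.01.

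The promoters of these genes share sequence features that the list of names did not use. Many genes of G2 and M phase are regulated through the MuvB complex. In human cells it binds the cell cycle genes homology region (CHR) near the start site, often beside CCAAT boxes bound by NF-Y. RefSeq promoter windows of 300 bases, 250 before the gene start and 50 from it on (GRCh38.p14), were found for 44 of the 54 genes. No window was used for AURKA, BIRC5, BUB3, CENPH, CENPL, CENPM, KNL1, KNTC1, TPX2 and TTK. The letters TTTGAA or TTCGAA on either strand, as a CHR, were in the windows of 27 of 44 genes (61.4%), against 16.4% of all 35116 windows and 17.5% of 14250 array genes. Within 60 bases before the start or after it, a distance chosen once positions were seen, 23 of 44 genes (52.3%) held one, against 5.74% of array genes. CCAAT on either strand was found for 31 of 44 (70.5%, against 34.6% of windows and 42.3% of array genes), and the E2F-type letters TTCCCGC or TTGGCGC for 10 (22.7%, against 9.23% and 15.0%). A CHR and a CCAAT match overlapped in CDCA8 alone, by 1 base. Such matches are letters in a window and show neither binding nor a cause of the values.

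Windows of 30 bases are printed for the 8 genes in which such a window around a CHR on the gene's own strand lies wholly before the start, within 100 bases of it, because they show the element in its setting. They read 5′ to 3′ along the gene, with the CHR in capitals.
CENPA: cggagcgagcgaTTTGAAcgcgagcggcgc
CDCA8: gtgactgtggagTTTGAAttgggtggcggt
BUB1B: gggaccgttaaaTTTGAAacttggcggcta
PLK1: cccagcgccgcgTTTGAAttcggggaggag
KIF4A: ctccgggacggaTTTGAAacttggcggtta
KIF23: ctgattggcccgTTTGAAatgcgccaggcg
CDC20: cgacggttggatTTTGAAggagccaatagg
CDK1: ctgattggctgcTTTGAAagtctacgggct

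All 8 genes lie on the plus strand. The windows are chr2:26786026-26786055 for CENPA, chr1:37692481-37692510 for CDCA8, chr15:40161034-40161063 for BUB1B and chr16:23678848-23678877 for PLK1. Those of the others are chrX:70290058-70290087 for KIF4A, chr15:69414282-69414311 for KIF23, chr1:43358904-43358933 for CDC20 and chr10:60778397-60778426 for CDK1, at the second of its RefSeq starts. The element begins 18 bases upstream of the start in CENPA, 23 in CDCA8 and BUB1B, 29 in PLK1, 34 in KIF4A, 55 in KIF23, 65 in CDC20 and 69 in CDK1. In BUB1B and KIF4A 11 of the 12 bases after the element are identical, where the median of all 28 pairs is 3 of 12. In KIF23 and CDK1 9 of the 12 bases before it are identical, and these hold the reverse complement of CCAAT.

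Genes with a CHR and genes without it overlapped in the pair titled C42B. The 27 with a match had a median difference of 0.49 and a range of 0.03 to 1.05, and the 17 without had a median of 0.35 and a range of -0.52 to 1.07. Both ends of the larger range, CENPI and SPC24, were genes without the letters in these windows. KIF2C, which also held none, was 2.08-fold higher, and BUB1B and INCENP, which held one near the start, had differences of 0.18 and 0.03. Genes with a CCAAT match had a median of 0.35 and those without a median of 0.59. In the pair titled PC3 the medians were -0.04 with a CHR and 0.03 without. For a CHR within 60 bases before the start or after it, the medians in the pair titled C42B were 0.53 for the 23 genes with it and 0.29 for the 21 without, with ranges of 0.03 to 1.05 and -0.52 to 1.07. The differences between these medians were not tested.

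**Figure D5:**
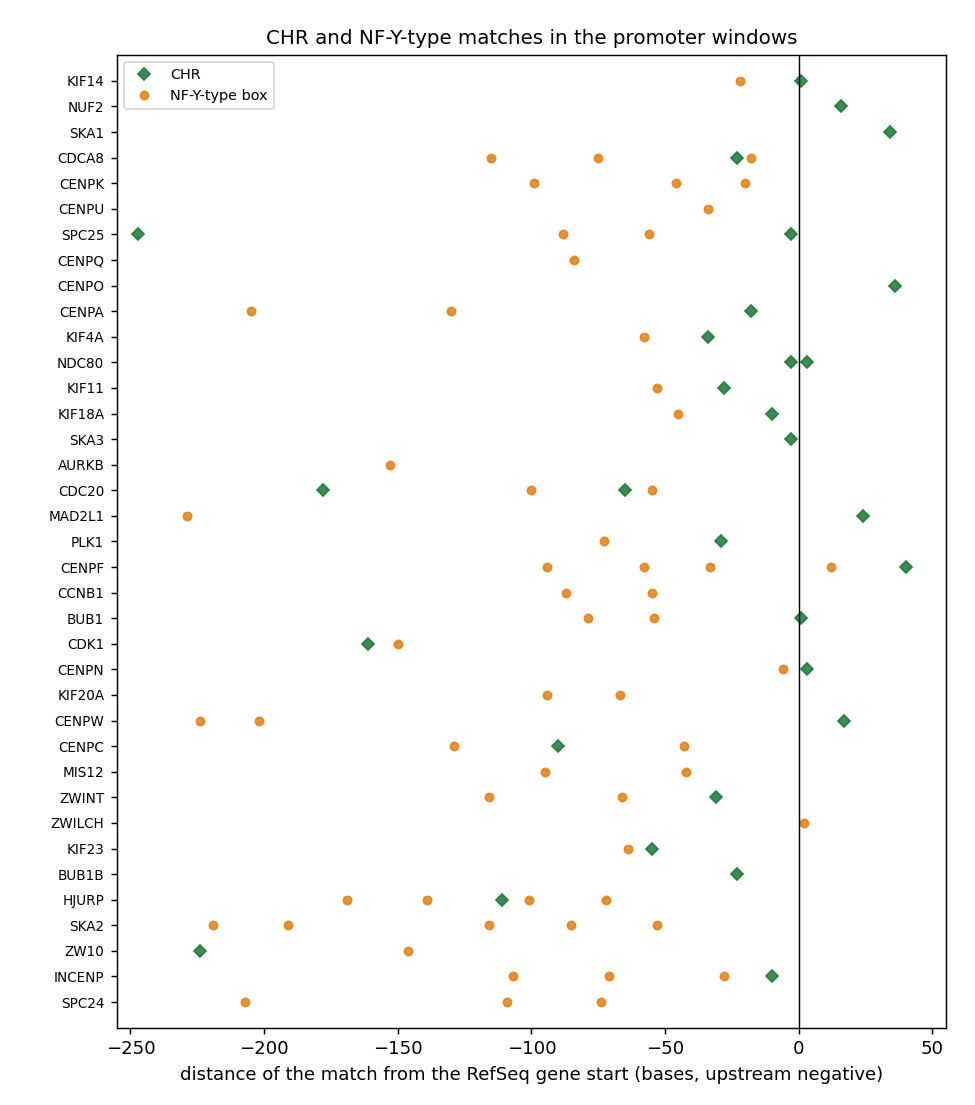
Distance in bases from the RefSeq gene start (horizontal axis, upstream negative) of CHR matches (diamonds) and of NF-Y-type CCAAT matches (circles) in the promoter windows of 37 genes with either, sorted from the highest to the lowest difference in the pair titled C42B, with 1 window per gene. Most diamonds lie between 60 bases upstream and the end of the window, in rows from top to bottom.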

How the data were processed

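Total RNA from 4 stable cultures was labelled and hybridised to Clariom S arrays. Partek was used by the authors for RMA normalization, as the submitters' processing notes say, and the deposited log2 values were used unaltered. RMA makes the distributions of the arrays alike, so a shift of all genes would not be seen, and it narrows differences of dim probe sets. Scanner files were not used here, so neither background signal nor a batch of arrays could be looked at. Precision is limited by the number of arrays. The genome build of the probe design is not given in the sources used here.

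Of 21448 probe sets, 17709 had 1 symbol in the platform's table and 3739 were unnamed here. After averaging the 20 genes with several probe sets, 17687 genes were left. Groups were taken from the titles, with 1 array per line and construct, and nothing says that cultures were repeated. Within a pair, the array titled miR-CON was subtracted from the array titled miR-410, with no test, and genes were counted at 1.5-fold, with 1.25-fold and 2-fold as alternatives. Lines were compared with limma 3.58.1 in R 4.3.3 over all genes (line and construct by title, 1 residual degree of freedom), with Benjamini-Hochberg adjustment at 0.05. The fit was also run on simulated arrays with independent noise and no construct effect. That run cannot show how a construct difference that the lines do not share bears on the calls. Alternatives were leaving out dim genes, centring, a loess trend (span 0.4), the brightest probe set, the construct by the other label fields, line as the only term, an intensity trend and each array left out. The fits with an array left out had no construct term.

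Every member may be named. The rule for values on all 4 arrays took members at least 1.5-fold different in a pair, the member with the largest difference of each complex, the 6 largest line differences and the brightest and dimmest probe sets, and in the other lists the 3 largest differences in the pair titled C42B, some of which are given on fewer arrays or as differences only. SPC24, PRC1, CCNE1, LIN37 and LIN52 were singled out after their values were seen. Members and lists were chosen with earlier results of these data known. Promoter and miRNA sequences are RefSeq's (GRCh38.p14), and a gene with 2 windows counts as holding a motif if either does. Computations used Python 3.11.15, NumPy 2.4.6, pandas 2.3.3, statsmodels 0.14.6 and Matplotlib 3.10.9.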

Additional observations from a re-analysis of the deposited data

Results flagged for a closer look

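For 5 of 54 genes (9.26%, against 11.8% of all genes) the difference by title ran in opposite directions in the pairs and was larger in each than the median absolute difference of all genes there (0.245 in the pair titled C42B and 0.164 in the pair titled PC3). They were CENPA (0.65 in the pair titled C42B and -0.26 in the pair titled PC3), CENPO (0.68 and -0.48), TTK (0.41 and -0.24), AURKB (0.52 and -0.20) and ZWINT (0.25 and -0.19). By the same measure 11 genes (20.4%, against 14.5% of all genes) ran in the same direction in both pairs: CENPE, CENPI, CENPK, CENPN, CENPU, CDCA8, CCNB1, SPC24, SPC25, KIF4A and KIF14. With the construct taken from the genotype and description fields these sets change places. They also do if only the pair titled C42B is turned to the direction in which the study gives PRKD1. The difference between the pairs was not tested, since each rests on 1 array per construct.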

How the results depend on the processing

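In the pair titled C42B the median difference was 0.46, and 0.49 among the 53 genes left without dim ones, 0.45 with the median of all genes subtracted and 0.36 with a loess trend subtracted. Every sign in this pair turns in the direction in which the study gives PRKD1. Of the 54 genes, 51 were above 0, and 49 after the loess trend, when 49.7% of all genes were. C42B miR-CON was lowest for 39 genes, for 40 with array medians subtracted and for 39 by ranks over all genes. These last 2 comparisons, of counts above 0 and of the lowest array, were chosen after seeing the data. The number at least 1.5-fold higher was 20, against 17 with the median of all genes subtracted, 14 with the loess trend subtracted, 34 at the lower of the alternative fold limits (19.4% of all genes) and 4 at 2-fold, and the number lower was 0, against 1 after the loess trend and 1 at the lower limit (18.8%), SPC24 in both cases. In the pair titled PC3 the median of -0.021 became -0.015 with the median of all genes subtracted, -0.041 with the loess trend subtracted and 0.021 by the genotype and description fields, and at the lower limit 3 genes were higher and 2 lower (11.1% and 12% of all genes) in place of 0 and 0. Between lines the median of 0.21 became 0.22 with array medians subtracted and 0.24 without dim genes, and ran from -0.0054 to 0.42 with each array left out. The limma calls ran from 3 to 20 higher and from 0 to 6 lower with each array left out (2 to 11 lower at an unadjusted p under 0.05), and the number lower was 4 without dim genes and 1 at 2-fold or more. With 1 array left, a line is assumed to vary like the other. No paired analysis was possible because the labels carry no replicate numbers and each line and construct has 1 array, so the construct term in the comparison of lines is the one matching of arrays that was made.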
